A study of Mus musculus with 10 samples.

Results

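The 10 genes described here encode inflammatory signals that fibroblasts and other stromal cells can secrete or display: the CC chemokines Ccl2 and Ccl7, the CXC chemokines Cxcl1, Cxcl5 and Cxcl12, the cytokines Il6 and Lif, the acute-phase proteins Saa3 and Lcn2, and the lipopolysaccharide co-receptor Cd14. They were chosen by name, with earlier results of these data known, and all 10 were found among the 46095 gene symbols of the count table. RNA-seq covered 3 libraries under cyclic mechanical strain and 3 static control libraries, all of the C3H10 T1/2 line, which comes from mouse embryos and resembles mesenchymal fibroblasts. ATAC-seq, which maps open chromatin by inserting sequencing adapters with the Tn5 transposase, covered 2 libraries in which Piezo1 had been knocked out by CRISPR/Cas9 and 2 of GFP control cells, again of C3H10 T1/2. Per the labels, RNA-seq cells of both groups grew for 48 h on flexible plates coated with type I collagen. The strained ones were then stretched at 0.5 Hz to 10% elongation for 8 h a day on 3 days, on a Flexcell unit. The labels give C57BL/6 as the strain of the RNA-seq cells. Whether replicates were separate cultures, and whether the knockout line is a single clone, is not given in the sources used here. RNA of knockout cells and chromatin of strained cells were not analysed here, and the peak lists do not check the loss of Piezo1.

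Chemokines are small secreted proteins that attract leukocytes through G protein-coupled receptors. They are named by the spacing of their first cysteines, which are adjacent in CC chemokines and separated by a residue in CXC chemokines. Interleukin 6 (IL-6) and leukaemia inhibitory factor (LIF) belong to a cytokine family that signals through a shared receptor subunit, the product of Il6st, to the transcription factor STAT3. Acute-phase proteins are made in quantity during inflammation, by the liver and by local cells, and many of their genes are controlled by NF-κB, C/EBP factors and STAT3. In bone, CCL2 is known for recruiting monocytes, the cells from which osteoclasts form, IL-6 for promoting osteoclast formation through stromal cells, and CXCL12 for holding blood stem cells in the marrow.

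Library totals lay between 36150738 and 41024689 counts. Within groups, pairs of replicates differed by more than counting noise (chi-square over its degrees of freedom, 9.19 to 59.6). Strain replicate 1 was the farthest of the strain libraries from the others and static replicate 3 the farthest of the static ones. Over the 15335 genes that passed the filter on low counts, edgeR's quasi-likelihood test called 911 higher and 1134 lower under strain at a Benjamini-Hochberg adjusted p under 0.05. Higher genes made up 44.5% of these calls, and 55.6% when libraries were scaled by their size alone, which called 1169 higher and 935 lower. Of 12 mesenchymal markers, Thy1 had at most 2 counts in any library and the other 11 were tested, with summed levels of 39059 to 45181 CPM (counts scaled to library size, with TMM factors) under strain and 63708 to 65470 CPM in static libraries, and 1 of them called higher and 6 lower. Such a sum is weighted toward genes with many reads, such as Col1a1 (17031 to 19833 CPM under strain, 30255 to 30779 CPM in static libraries). Pdgfra, Pdgfrb, Eng and Prrx1 were not called (log2 fold change −0.03, −0.04, −0.35 and 0.19, edgeR). Of 6 epithelial markers the 2 tested, Krt19 and Cdh1, both fell (summed list, 3.15 to 7.90 CPM under strain and 26.6 to 38.5 CPM in static libraries). Of 6 endothelial markers 3 were tested and 0 were called by edgeR (summed list, 3.96 to 6.37 CPM under strain and 3.07 to 4.04 CPM in static libraries). The part of these shifts in the results below was not tested. Of 14 leukocyte markers, 7 had no count in any library, among them Ptprc, which encodes the pan-leukocyte antigen CD45. The summed leukocyte level was 16.5 to 18.2 CPM under strain and 14.3 to 18.1 CPM in static libraries, and 0 of 5 tested markers were called in either direction by edgeR. In bulk RNA, fewer cells of a type and less RNA per cell cannot be told apart.

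All 10 members passed the filter, and 6 of them rose under strain: Saa3, Ccl2, Cd14, Lcn2, Ccl7 and Il6. Their edgeR fold changes ran from 1.87 to 3.69. None fell, and Cxcl1, Cxcl12, Lif and Cxcl5 were not called. Over all genes tested, 5.94% were called higher and 7.39% lower. The same 6 were the members whose strain libraries all lay above all static libraries, a pattern seen in 17.4% of all genes tested, with the reverse pattern in 17.9%. Each of the 6 was called in all 14 alternatives tried, the 6 fits with 1 library left out among them. The median log2 fold change of the 10 was 0.95, beside 0.0049 over all genes tested. Since the members were chosen with earlier results of these data known, no conclusion about them as a set is drawn from these comparisons.

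**Figure D1:**
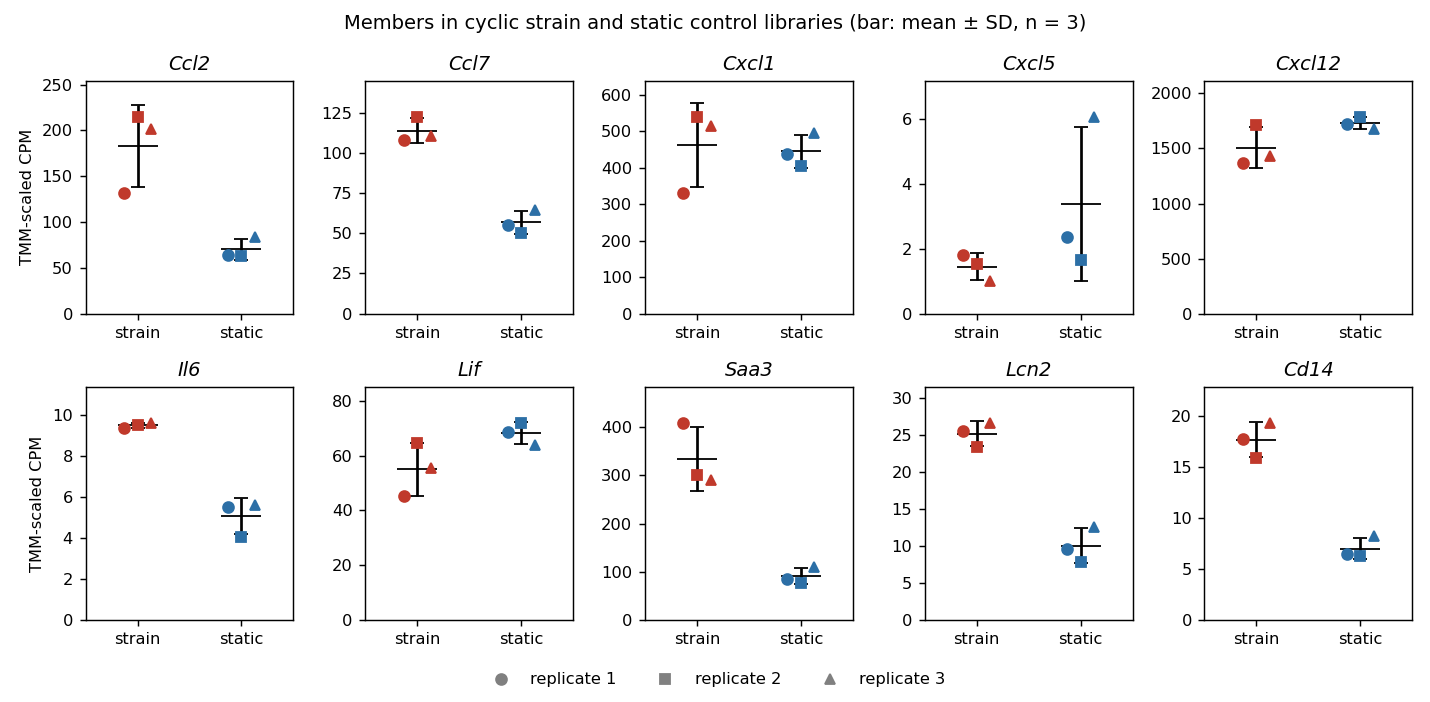
TMM-scaled CPM of each member (vertical axis, from 0) in the 3 cyclic strain and 3 static libraries, with replicates as separate symbols and the mean ± SD as bars. For Ccl2, Ccl7, Il6, Saa3, Lcn2 and Cd14 all strain libraries lie above all static libraries, and for the other 4 genes the groups overlap.

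The CC chemokine genes Ccl2 and Ccl7 encode the monocyte attractants MCP-1 and MCP-3, ligands of the receptor CCR2. Ccl2 (chr11:82035577-82037452, mm10) was at 132, 215 and 201 CPM in strain replicates 1 to 3, against 63.9, 62.4 and 83.8 CPM in static replicates 1 to 3. Every strain library exceeded every static one, and strain replicate 1 was the lowest of its group. Ccl2 rose 2.61-fold (log2 fold change 1.38, SE 0.18, edgeR adjusted p = 0.00109), and the log2 value lay between 1.25 and 1.57 with 1 library left out. Ccl7 (chr11:82045712-82047525), the next chemokine gene along the chromosome, was at 108, 123 and 110 CPM under strain and at 55.3, 50.2 and 64.7 CPM in static cells. Its replicates were closely grouped, and it rose 2.01-fold (log2 fold change 1.00, SE 0.12, edgeR adjusted p = 0.000499).

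Ccl2 and Ccl7 open a cluster of 6 CC chemokine genes on chromosome 11, and the other 4 ranged from a clear rise to no reads at all. Ccl8, which encodes the chemoattractant MCP-2, had 191, 172 and 226 counts under strain and 39, 29 and 44 counts in static libraries. Its summed counts gave a depth-scaled ratio of 4.77 with an exact 95% interval, for counting error alone, of 3.89 to 5.89, and edgeR called it higher (log2 fold change 2.25, SE 0.23, adjusted p = 0.000245). The eotaxin gene Ccl11, which lies between Ccl7 and Ccl8, did not pass the filter, with 10, 6 and 16 counts under strain and 1, 4 and 2 counts in static libraries. Ccl12 and Ccl1 had 0 counts in all 6 libraries, which allows up to 3 counts in a library, or 0.0721 to 0.0802 CPM under strain and 0.0784 to 0.0853 CPM in static cells. The groups of libraries did not overlap at Ccl2, Ccl7, Ccl11 and Ccl8, the 4 genes of the cluster with reads, and Ccl11 was not tested. Over all genes tested, 17.4% had all strain libraries above all static ones, a share that does not cover Ccl11.

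**Figure D2:**
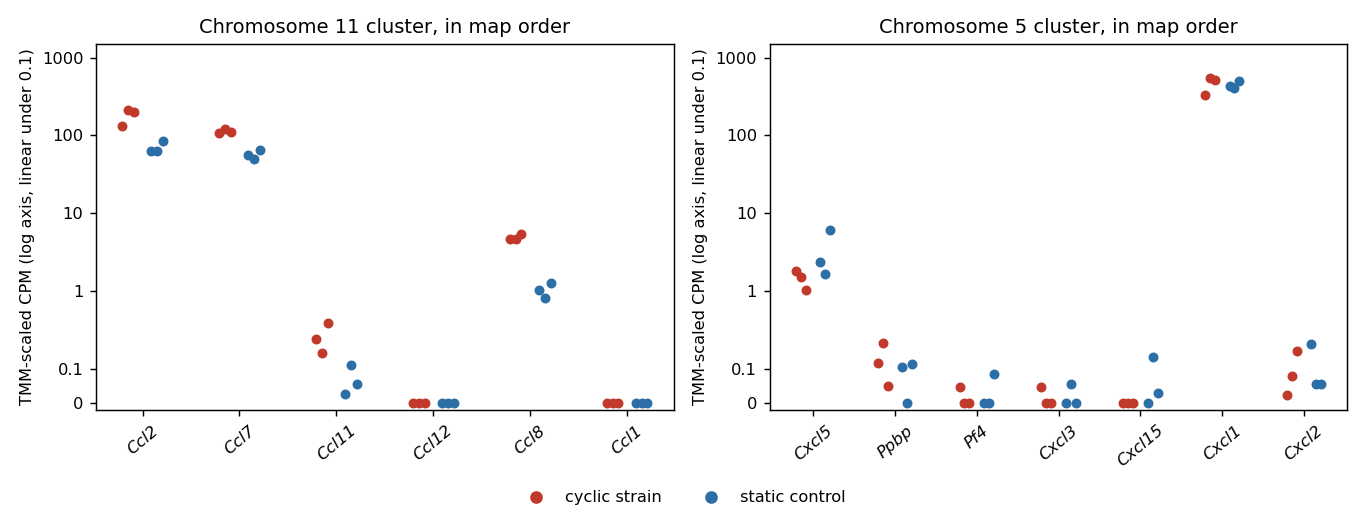
TMM-scaled CPM (log axis, linear under 0.1) of the chemokine genes on chromosomes 11 and 5, each in map order, with a point per library. Red points, the strain libraries, lie above blue points, the static libraries, at Ccl2, Ccl7, Ccl11 and Ccl8, while Cxcl1 shows overlapping groups and its neighbours Cxcl2, Cxcl3, Cxcl15, Pf4 and Ppbp had at most 8 counts in any library.

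The CXC members did not pass the test. Cxcl1 (chr5:90891245-90893121), whose product attracts neutrophils through CXCR2, was at 330, 540 and 515 CPM in strain replicates 1 to 3 and at 436, 405 and 494 CPM in static replicates. Strain replicate 1 lay below all static libraries and the other 2 strain libraries lay above them. The fold change was 1.04 (95% interval 0.799 to 1.35, edgeR adjusted p = 0.867), an interval that leaves room for changes of that size in either direction. Without strain replicate 1 the log2 fold change was 0.24 (adjusted p = 0.177). Without both strain replicate 1 and static replicate 3 it was 0.32 and was called (edgeR adjusted p = 0.0146), and without strain replicate 2 it was −0.08. It was also below 0 without strain replicate 3 (−0.04) or static replicate 2 (−0.01). Cxcl1 thus had no stable direction in these libraries.

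Cxcl5 (chr5:90759298-90761625), which encodes the neutrophil attractant LIX, had few reads, with 76, 57 and 42 counts under strain and 91, 59 and 214 counts in static libraries. Scaled, these were 1.83, 1.52 and 1.02 CPM under strain and 2.38, 1.66 and 6.09 CPM in static cells, so that static replicate 3 stood above the rest. The log2 fold change was −1.21 (SE 0.45, 95% interval −2.20 to −0.22, edgeR adjusted p = 0.0991). It was −0.47 without static replicate 3, and −1.54 and called without static replicate 2 (edgeR adjusted p = 0.0218). DESeq2 (adjusted p = 0.0314) and edgeR without a filter on low counts (adjusted p = 0.00139) also called it lower.

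Cxcl12 (chr6:117168535-117181368) encodes the stromal ligand of CXCR4, also called SDF-1. It was at 1364, 1718 and 1436 CPM under strain and 1724, 1790 and 1676 CPM in static cells. Strain replicate 2 lay within the static range and the other 2 strain libraries lay below it. The fold change was 0.870 (95% interval 0.732 to 1.03, edgeR adjusted p = 0.261). Receptor genes had few reads. Cxcr4 had at most 10 counts in any library, and Ccr2, Cxcr1 and Cxcr2, which are among the receptors of the other chemokine members, had 0 counts in all 6. Ccr1, another chemokine receptor gene, had 5, 7 and 2 counts under strain and 0, 1 and 1 counts in static libraries, and was not tested. Ackr3, whose product scavenges CXCL12, was among the 3 chemokine receptor genes that passed the filter, and it fell to 12.2, 13.5 and 11.9 CPM under strain, against 20.6, 19.9 and 19.9 CPM in static cells (log2 fold change −0.68, SE 0.12, edgeR adjusted p = 0.00383).

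The cytokine Il6 (chr5:30013114-30019975) was at 9.37, 9.51 and 9.65 CPM under strain and at 5.51, 4.07 and 5.63 CPM in static cells. The strain libraries were nearly equal and all above the static ones. Il6 rose 1.87-fold (log2 fold change 0.91, SE 0.16, edgeR adjusted p = 0.00513), on 1144 summed counts under strain and 554 in static cells. Its gene body overlaps the long noncoding RNA gene A230098N10Rik of the other strand, which had at most 1 count in a library. Lif (chr11:4257568-4272514), which encodes a differentiation inhibitor of embryonic stem cells and a regulator of bone cells, was at 45.3, 64.5 and 55.5 CPM under strain and 68.8, 72.1 and 63.9 CPM in static cells. Only strain replicate 2 reached the static range, and Lif was not called (log2 fold change −0.31, SE 0.13, 95% interval −0.60 to −0.02, edgeR adjusted p = 0.146).

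The sequences before the RefSeq start sites of Cxcl1 and Il6 are shown because the deposited ATAC-seq peaks of all 4 libraries overlap their promoter windows. Each run holds the 250 bases before the start site on the plus strand (RefSeq, GRCm38.p6, the mm10 build), and capitals mark matches to 5 motifs that were searched on both strands: an NF-κB form (kB, GGNNNTTCC), a C/EBP form (TTNNGNAA), a STAT form (TTCNNNGAA), an AP-1 form (TGANTCA) and TATAAA.
Cxcl1, chr5:90890995-90891244: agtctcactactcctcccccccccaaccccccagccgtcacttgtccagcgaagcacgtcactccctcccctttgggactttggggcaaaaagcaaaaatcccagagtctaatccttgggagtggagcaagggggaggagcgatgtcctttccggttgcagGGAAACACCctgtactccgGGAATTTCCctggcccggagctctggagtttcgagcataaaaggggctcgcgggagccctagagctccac
Il6, chr5:30012864-30013113: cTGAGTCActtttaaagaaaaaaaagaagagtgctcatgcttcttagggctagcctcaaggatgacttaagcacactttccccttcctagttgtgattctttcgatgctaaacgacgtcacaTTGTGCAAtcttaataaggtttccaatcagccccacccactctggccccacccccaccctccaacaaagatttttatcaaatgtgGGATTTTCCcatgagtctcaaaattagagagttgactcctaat
In Cxcl1 the capitals are 2 kB matches, at −89 to −81 and −70 to −62 from the start site, and the second matches on both strands. In Il6 they are an AP-1 match at −249 to −243, a C/EBP match at −128 to −121 and a kB match at −43 to −35. Of 27025 promoters in the table, 15.6% held a kB match in this window, 36.9% a C/EBP match, 7.18% a STAT match, 6.87% an AP-1 match and 13% TATAAA. A match is a description of the letters, not evidence of binding.

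Saa3 had the largest fold change of the members. It encodes a serum amyloid A protein that, unlike its liver-made relatives, is produced by fibroblasts, macrophages and other cells outside the liver. Saa3 (chr7:46711998-46719615) was at 409, 300.0 and 290.1 CPM in strain replicates 1 to 3, against 84.0, 77.5 and 109 CPM in static replicates. The lowest strain library was well above the highest static one, and strain replicate 1 was the highest, whereas it had been the lowest for Ccl2, Ccl7 and Cxcl1. Saa3 rose 3.69-fold (log2 fold change 1.88, SE 0.17, edgeR adjusted p = 9.96e-05), the 48th largest log2 fold change of the 15335 genes tested. The other serum amyloid genes were barely detected, with at most 6 counts of Saa1, 11 of Saa2 and 6 of Saa4 in any library. How reads shared between such relatives were counted was not tested, so these values are uncertain. The overlapping noncoding gene Gm31882, on the other strand, had at most 1 count.

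Lcn2 (chr2:32384637-32387739) encodes lipocalin 2, a protein that binds bacterial iron carriers. It was at 25.5, 23.3 and 26.6 CPM under strain and 9.62, 7.81 and 12.5 CPM in static cells, with no overlap. Lcn2 rose 2.52-fold (log2 fold change 1.33, SE 0.17, edgeR adjusted p = 0.000771). Slc22a17, which encodes a lipocalin 2 receptor, fell to 6.89, 8.15 and 8.63 CPM under strain, against 12.6, 12.9 and 12.9 CPM in static cells (log2 fold change −0.70, SE 0.14, edgeR adjusted p = 0.00738).

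The windows of Saa3 and Lcn2, both called higher, are shown for comparison with those of Cxcl1 and Il6, read on the minus strand with capitals as above. The Saa3 window lies inside the RefSeq gene body.
Saa3, chr7:46715677-46715926: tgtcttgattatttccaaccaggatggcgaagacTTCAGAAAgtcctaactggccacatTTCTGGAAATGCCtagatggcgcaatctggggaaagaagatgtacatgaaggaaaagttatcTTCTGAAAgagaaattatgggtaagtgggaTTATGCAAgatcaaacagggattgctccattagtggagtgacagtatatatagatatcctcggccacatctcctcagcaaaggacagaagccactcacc
Lcn2, chr2:32387740-32387989: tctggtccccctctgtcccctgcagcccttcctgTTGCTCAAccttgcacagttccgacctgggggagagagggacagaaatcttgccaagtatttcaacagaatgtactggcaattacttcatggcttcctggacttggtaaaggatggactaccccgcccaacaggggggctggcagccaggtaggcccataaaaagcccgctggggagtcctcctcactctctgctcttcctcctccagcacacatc
Saa3 held 4 C/EBP matches and 1 kB match, and the kB match overlaps a C/EBP match. Lcn2 held 1 C/EBP match. Of the 6 members with a RefSeq promoter in the table, 3 held a kB match, 3 a C/EBP match, 2 an AP-1 match and none a STAT or TATAAA match in these letters. Over all 27025 promoters the shares were 15.6%, 36.9%, 6.87%, 7.18% and 13% in the same order, and nothing particular to the members is read from these counts.

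Cd14 encodes the co-receptor that hands lipopolysaccharide to the TLR4 and MD-2 complex and is used as a monocyte marker. It was at 17.8, 16.0 and 19.4 CPM under strain and 6.48, 6.32 and 8.22 CPM in static cells. All strain libraries were above all static ones, and Cd14 rose 2.53-fold (log2 fold change 1.34, SE 0.15, edgeR adjusted p = 0.000376). Beside it, the leukocyte markers Ptprc, Cd3e, Ly6g, Cd52, Laptm5 and Tyrobp had 0 counts in all 6 libraries, and the monocyte markers Itgam and Adgre1 had at most 1 and 4 counts in any library. Csf1r, the receptor gene of the macrophage growth factor CSF1, had 58 summed counts under strain and 61 in static cells, Lyz2 had 1347 and 1208, and Fcer1g had 192 and 190. Cd68, a lysosomal protein gene used as a macrophage marker, was at 4.47, 3.31 and 2.88 CPM under strain and 2.38, 2.13 and 3.04 CPM in static cells, with overlapping groups (log2 fold change 0.50, SE 0.24, edgeR adjusted p = 0.194). Coro1a had 68 summed counts under strain and 43 in static cells (0.50, SE 0.52, edgeR adjusted p = 0.562). The part of cells with these markers in the Cd14 values was not tested. Tlr4 was at 36.1, 31.2 and 32.7 CPM under strain and 26.8, 27.6 and 23.4 CPM in static cells and was not called (log2 fold change 0.36, edgeR adjusted p = 0.0615), and neither was Ly96, the MD-2 gene (0.26, adjusted p = 0.342).

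**Figure D3:**
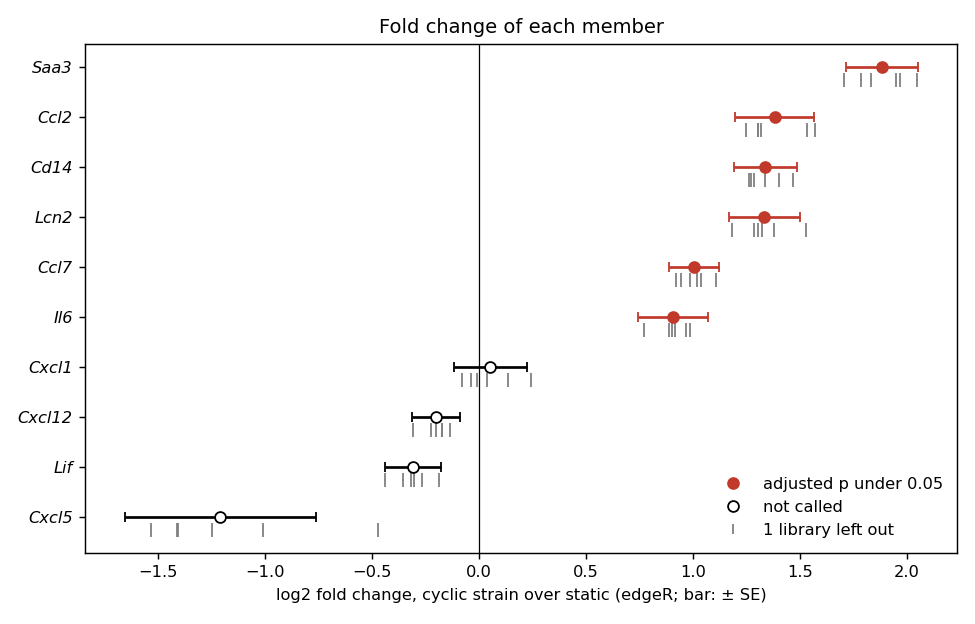
Log2 fold change (edgeR, strain over static) of each member with its SE, and the values with 1 library left out as ticks. The 6 filled points lie between 0.91 and 1.88, and only Cxcl1 has ticks on both sides of 0.

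The genes around these signals were described by 7 lists that hold 167 genes besides the members, of which 104 passed the filter. Of these, 16 rose and 9 fell, with a median log2 fold change of 0.20, beside 0.0049 over all genes tested. The counts of each list below stand beside a background of 5.94% of all genes tested called higher and 7.39% called lower, and nothing particular to a list is read from them. Among 32 other chemokine ligand genes 10 were tested, of which 3 rose and 1 fell. Besides Ccl8 the higher ones were Ccl5, at 8.84, 9.78 and 8.55 CPM under strain and 4.55, 5.00 and 5.75 CPM in static cells (log2 fold change 0.83, edgeR adjusted p = 0.00604), and the interferon-induced Cxcl9, with summed counts of 77 under strain and 9 in static cells, a depth-scaled ratio of 7.75 (exact 95% interval 3.88 to 17.6). The call of Cxcl9 was lost without strain replicate 2 or static replicate 1 (edgeR adjusted p up to 0.0686). Cxcl14 fell to 35 summed counts under strain, against 157 in static cells, a ratio of 0.202 (95% exact interval 0.136 to 0.293). Of 22 chemokine receptor genes 3 were tested and 2 fell, Ackr3 and Ccr7. Ccr7, a lymph node homing receptor gene, had 61 summed counts under strain and 248 in static cells, a ratio of 0.223 (95% exact interval 0.166 to 0.296).

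Of 23 tested genes of the IL-6 family, its receptors and the STAT3 pathway, 2 rose and 0 fell, with a median of 0.24. The higher ones were the oncostatin M receptor gene Osmr (log2 fold change 0.41, edgeR adjusted p = 0.0425) and the kinase gene Pim1 (0.40, edgeR adjusted p = 0.0243). The call of Osmr was lost without strain replicate 2 or 3 or static replicate 1 or 3 (adjusted p up to 0.166), and that of Pim1 when any library other than static replicate 3 was left out (up to 0.0894). Socs3, the feedback inhibitor that STAT3 induces, was at 92.8, 136 and 136 CPM under strain and 127, 115 and 144 CPM in static cells and was not called (log2 fold change −0.08, edgeR adjusted p = 0.755). The receptor genes Il6st (0.43, adjusted p = 0.236), Il6ra (0.43, adjusted p = 0.184) and Lifr (0.08, adjusted p = 0.805) and Stat3 itself (0.29, adjusted p = 0.121) were not called by edgeR either.

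In the list of CD14, Toll-like and IL-1 receptor signalling, 5 of 24 tested genes rose and 2 fell, with a median of 0.27. Tlr2, the receptor of bacterial lipoproteins, was at 50.5, 58.1 and 56.1 CPM under strain and 33.0, 30.5 and 33.1 CPM in static cells (log2 fold change 0.77, SE 0.10, edgeR adjusted p = 0.00115). The higher genes next in size of change were Il1rn (0.74), Il1rap (0.72) and Tlr3 (0.69). Il1rn lost its call without strain replicate 2 or 3 or static replicate 1 or 3, Tlr3 without strain replicate 1 or 2 or static replicate 1 or 3, and Il1rap without any library other than static replicate 2 (edgeR adjusted p up to 0.141). Il33, an IL-1 family alarmin, fell to 7.35, 11.4 and 9.84 CPM under strain, against 23.3, 20.5 and 22.8 CPM in static cells (log2 fold change −1.22, SE 0.16, edgeR adjusted p = 0.00107). The other lower gene, Ticam2, which encodes an adaptor of TLR4, had 27 summed counts under strain and 258 in static cells, a ratio of 0.0948 (95% exact interval 0.0613 to 0.141). Its neighbour Tmed7 had 6413, 5358 and 5179 counts under strain and 4603, 4540 and 3751 in static libraries. The Ticam2 value is uncertain, since how reads were assigned between these neighbours was not tested. The inflammatory cytokine genes Il1b and Tnf had 0 counts in all 6 libraries, which allows up to 3 counts in each, and Il1a had at most 4.

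NF-κB subunits, inhibitors and targets gave 2 higher and 2 lower genes among 20 tested, with a median of 0.07. Ikbkg, which encodes the regulatory subunit of the IκB kinase, rose (log2 fold change 0.63, SE 0.11, edgeR adjusted p = 0.00543). Nfkbiz, whose product is needed for induction of Il6 and Lcn2 in mouse macrophages, also rose, to 111, 149 and 130 CPM under strain, against 92.5, 102 and 85.4 CPM in static cells (0.48, SE 0.12, edgeR adjusted p = 0.0301). That call was lost without strain replicate 2 or 3 or static replicate 1 or 3 (adjusted p up to 0.128). Tnfaip3, the gene of the NF-κB inhibitor A20, fell to 46.7, 71.9 and 64.7 CPM under strain, against 99.3, 102 and 87.5 CPM in static cells (−0.66, SE 0.15, edgeR adjusted p = 0.0181), a call lost without strain replicate 3 or static replicate 1 (adjusted p up to 0.0648). Traf1 fell to 100 summed counts under strain, against 265 in static cells. Nfkbia, the gene of the inhibitor IκBα, was not called (−0.34, SE 0.16, edgeR adjusted p = 0.172).

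Of 13 tested other acute-phase and receptor genes, 3 rose and 2 fell. Hp, the gene of the haemoglobin-binding haptoglobin, was at 28.2, 30.8 and 34.4 CPM under strain and 13.9, 15.2 and 19.6 CPM in static cells (log2 fold change 0.94, SE 0.15, edgeR adjusted p = 0.0026). Ptx3, the gene of a pentraxin made at sites of inflammation, was at 569, 600 and 605 CPM under strain and 422, 404 and 384 CPM in static cells (0.55, SE 0.09, edgeR adjusted p = 0.00412). The protease inhibitor gene Serpina3n also rose (0.67, edgeR adjusted p = 0.0414) but lost its call in 5 of the 6 fits with 1 library left out, all but that without strain replicate 2 (adjusted p up to 0.144). A2m and Slc22a17 fell, and A2m had 3 summed counts under strain and 57 in static cells, a ratio of 0.0477 (95% exact interval 0.00955 to 0.147). Among 11 regulators of cytokine mRNA decay 1 was called, Zc3h12c (0.70, edgeR adjusted p = 0.0454), in 1 of the 6 fits with 1 library left out, that without static replicate 2.

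**Figure D4:**
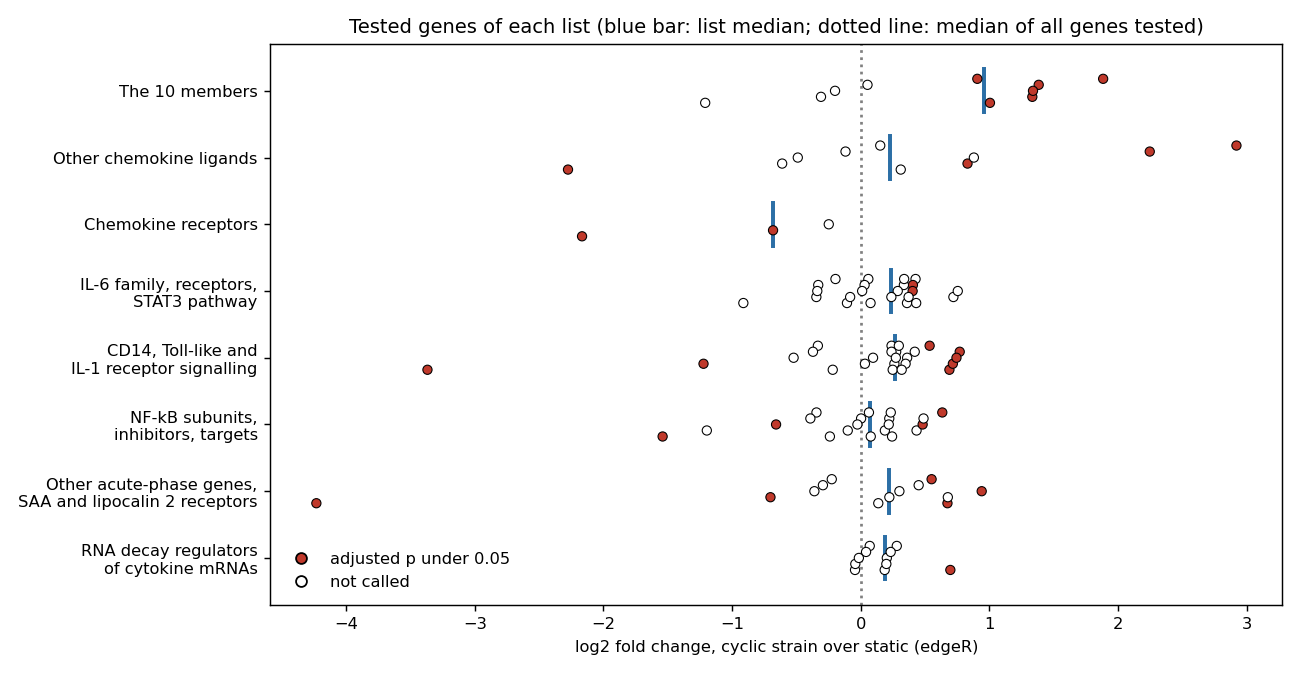
Log2 fold change (edgeR, strain over static) of the tested genes of each list, with called genes filled, the list median as a blue bar and the median of all genes tested as a dotted line. The 10 members have a median of 0.95, and the 7 lists have medians between −0.68, from 3 chemokine receptor genes, and 0.27.

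Open chromatin near the members was compared between Piezo1 knockout and GFP control cells. Knockout replicates 1 and 2 had 15980 and 13610 peaks in the authors' lists, and GFP replicates 1 and 2 had 15978 and 26652. With 2 libraries per group and no counts in the peak lists, no test between the groups was made. Within 5 kb of a gene body, 8 and 6 members had a peak in knockout replicates 1 and 2, and 6 and 8 in GFP replicates 1 and 2. The background was 63.6%, 62.1%, 61.2% and 76.3% of the 14340 tested genes placed in RefSeq, in the same order of libraries. Ccl2, Cxcl1, Cxcl5, Il6 and Lif had a peak in all 4 libraries, as did 51.3% of those genes. Lcn2 had none in any library, as had 21.4% of them, and none within 20 kb either.

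Merged over the 4 lists, the peaks formed 14 regions near the members. Of these, 5 were present in all 4 libraries, 6 in a single library and 3 in 3 libraries. None was present in both knockout libraries and neither GFP library, or in both GFP libraries and neither knockout library. Over all 29289 merged regions, 26.4% were present in all 4 libraries and 42.6% in a single library, beside 35.7% and 42.9% near the members. Of all regions, 1.57% were in the knockout pair only and 10.6% in the GFP pair only. Of the 6 regions in a single library 4 were in GFP replicate 2, the longest list.

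At Ccl2 a region on the low-coordinate side (chr11:82032595-82033381), 2196 to 2982 bases from the gene, was present in all 4 libraries. A distal NF-κB-binding control region upstream of the mouse Ccl2 start site is known from earlier work, and whether this region holds it was not tested. A second region over the start coordinate of Ccl2 (chr11:82035206-82035781) was present in knockout replicate 1 and both GFP libraries and had no peak in knockout replicate 2. Its GFP replicate 1 peak ended 100 bases before that coordinate. The peaks of this second region also ranked low by fold, from the top 76.6% to the top 99.3% of their lists. Knockout replicate 1 and both GFP libraries, and not knockout replicate 2, also had peaks in a merged region over the start coordinate of Ccl7 (chr11:82045406-82046006). The knockout replicate 1 peak ended 40 bases before that coordinate, and both GFP libraries had a peak over it. At Ccl7 the strongest peak's fold enrichment over its local background, as the authors' lists give it, was 4.10 in knockout replicate 1 and 5.53 and 6.42 in GFP replicates 1 and 2. These peaks differ in place, since only the GFP ones cover the start coordinate. GFP replicate 2 had another peak, 306 to 102 bases before that coordinate, with a fold enrichment of 3.33. That peak overlaps the knockout replicate 1 peak, and no difference between the groups is read from these values. Knockout replicate 2 had the fewest peaks of the 4, and its part in these absences was not tested.

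The Cxcl1 promoter window was overlapped by 1 peak of 597 to 724 bases in each library, with a fold enrichment of 6.68 and 7.38 in knockout replicates 1 and 2 and of 7.34 and 8.98 in GFP replicates. By fold it was in the top 18.8% and 9.18% of the knockout lists and in the top 7.67% and 4.20% of the GFP lists. At Il6 the merged region (chr5:30012923-30013673) ran from 191 bases before the annotated start to 559 bases into the gene, with the strongest peak of each list at a fold enrichment of 8.45 and 4.86 in knockout replicates and 6.14 and 6.71 in GFP replicates. The 2 knockout lists thus bracket the 2 GFP lists at Il6. Both genes are among the 35.6% of 10515 promoter windows of tested genes that a peak overlapped in all 4 libraries.

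At Cxcl5 a region at the start coordinate (chr5:90759153-90759716) was present in all 4 libraries, although the knockout peaks began 139 and 145 bases before the annotated start and the GFP peaks 78 and 176 bases after it. Under a stricter merging rule, a reciprocal overlap of 50%, that region came apart, since the knockout and GFP peaks overlap by less. Lif had no peak over its promoter window, and its peak in all 4 libraries lay inside the gene, 13350 to 13711 bases from the low-coordinate end (chr11:4270918-4271279). The Cxcl12 promoter window had no peak in any list, and the 1 peak near Cxcl12, beyond its high-coordinate end, was in knockout replicate 1.

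Near Saa3, whose promoter window had no peak, the region in both knockout libraries and GFP replicate 2 (chr7:46710376-46710745) overlaps the neighbouring gene Saal1. The other Saa3 region (chr7:46719615-46719849) was in knockout replicate 2 only and also overlaps Gm31882. It lies at the high-coordinate end of the Saa3 gene body, which is the annotated upstream end of this minus-strand gene. Cd14 (chr18:36725064-36726815) had 2 peaks in its gene body, both in GFP replicate 2 only. Within 20 kb, however, Cd14 and Ccl7 had a peak in all 4 libraries and Saa3 in 3. Within 5 kb, the members called higher under strain that had a region in all 4 lists were Ccl2 and Il6. Ccl7, Saa3 and Cd14 had a region in some lists and Lcn2 in none. The 4 members that were not called included 3 with a region in all 4 lists (Cxcl1, Cxcl5, Lif) and Cxcl12.

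**Figure D5:**
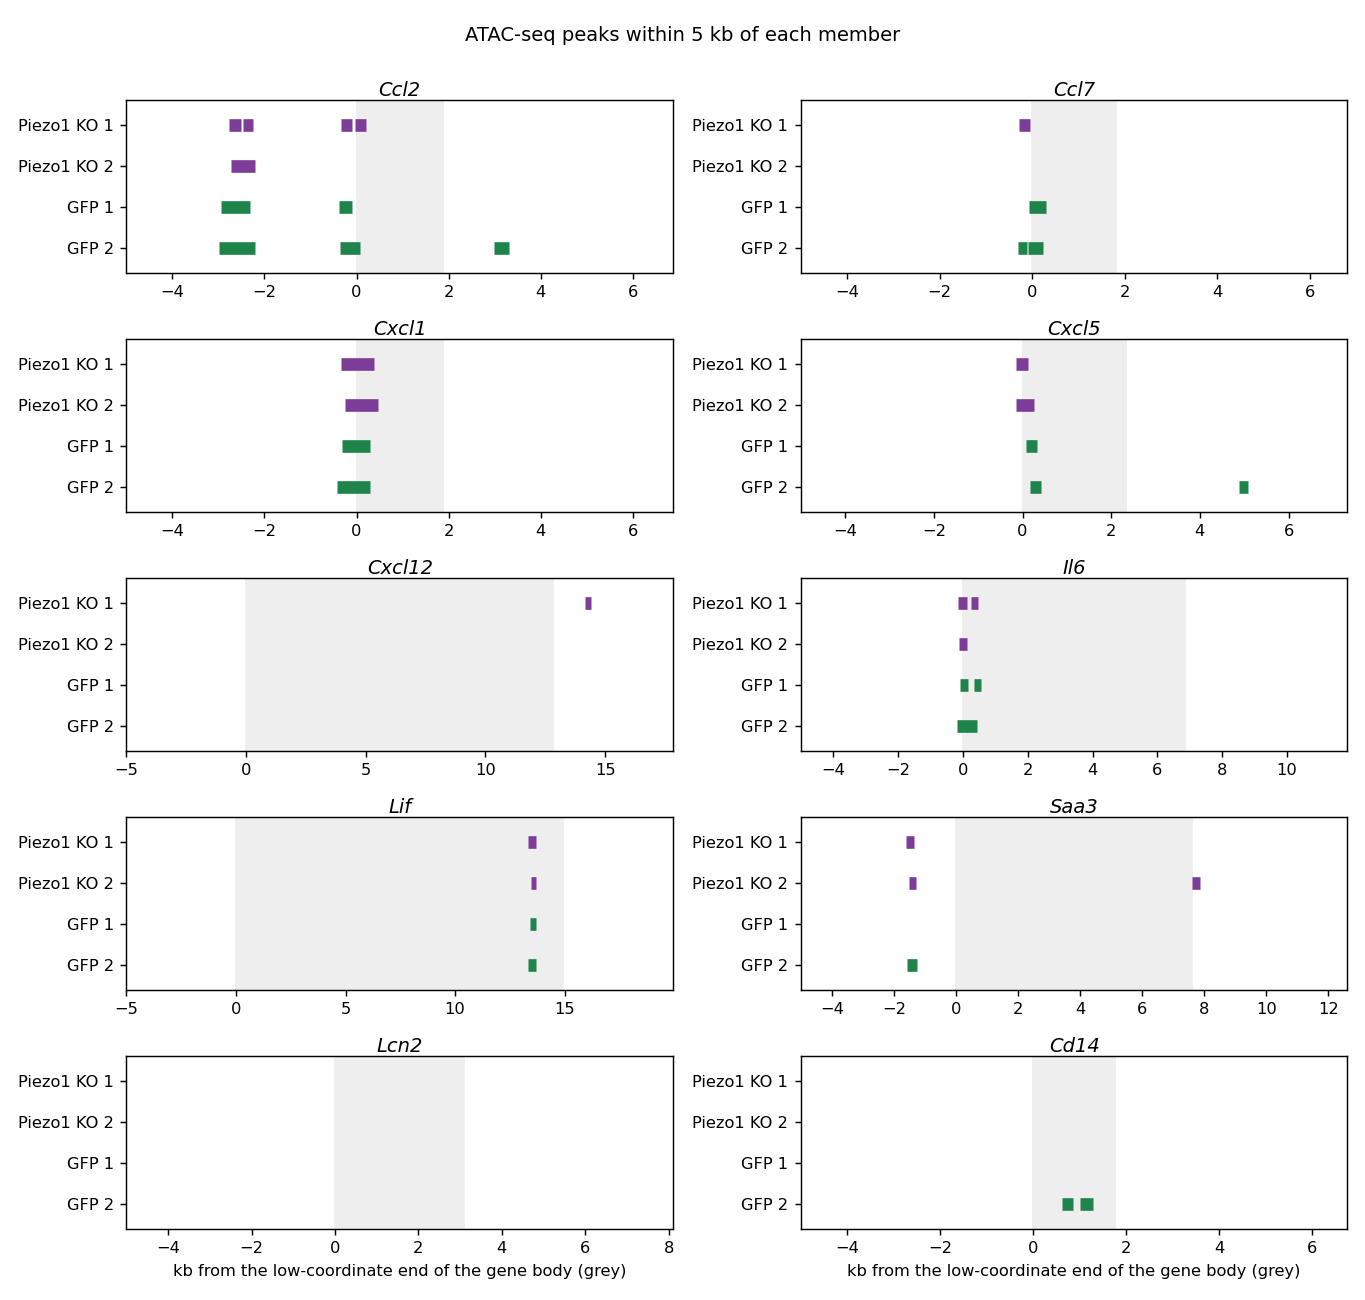
Positions of ATAC-seq peaks (horizontal bars) within 5 kb of each member in the 2 Piezo1 knockout and 2 GFP libraries, in kb from the low-coordinate end of the gene body, which is shaded. Ccl2, Cxcl1, Cxcl5, Il6 and Lif have a region in all 4 libraries and Lcn2 has no peak.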

How the data were processed

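RNA-seq was measured in 3 strain and 3 static libraries and ATAC-seq in 2 knockout and 2 GFP libraries. The authors deposited raw read counts per gene symbol; per the submitters' processing notes reads were handled with Trim Galore 0.6.5, STAR, HTSeq and mm10, and DESeq2 is named. No source used here mentions molecular identifiers for the amplified cDNA, and intervals on summed counts therefore cover counting error only. The strand setting and the annotation are not given in these sources, so overlapping genes and near-identical copies may be miscounted. The authors also deposited a MACS2 peak list per library (Bowtie2 2.4.2, mm10, per the submitters' processing notes), with a fold enrichment, which is a ratio, and −log10 p and q values.

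Counts were tested with edgeR 4.0.16 (glmQLFit, glmQLFTest, two-sided, TMM, filterByExpr, R 4.3.3), with adjusted p over all genes tested, and the test was checked on simulated data. SE is the absolute log2 fold change over the square root of F. Intervals are 95%. No label says that replicates were separate cultures, so p-values reflect only how these libraries vary, possibly for technical reasons. Alternatives used DESeq2 1.42.0 and limma 3.58.1 (voom). Peaks were placed with bedtools 2.31.1 on RefSeq gene bodies, and 6 of 10 members had a RefSeq promoter. Levels of different genes are not compared, since no transcript lengths were used. Members and lists were chosen with earlier results of these data known. From each list the called genes with the largest change were named, at most 4 per direction, with fixed receptors and inhibitors. Other genes, such as markers, cluster neighbours and genes at 0, were named after their values were seen.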

Additional observations from a re-analysis of the deposited data

How the results depend on the processing

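The 6 higher members were called in each of the 14 alternatives, and no member's call was lost. Among the members, the only direction that turned was that of Cxcl1, which was −0.079, −0.040 and −0.012 on the log2 scale without strain replicate 2, strain replicate 3 and static replicate 2; over the fits with 1 library left out it ran from −0.079 to 0.24. Of the list genes named by rule, Lifr (−0.12 to 0.21) and Socs3 (−0.18 to 0.078), neither of them called, also turned with 1 library left out, and library size alone as scaling turned the balance of calls over all genes to 1169 higher and 935 lower. A lower call appeared for 1 member, Cxcl5, with no filter on low counts, with DESeq2 and without static replicate 2. With 1 library left out, 6 members were higher in each fit, 0 to 1 lower, 369 to 1085 of all genes higher and 577 to 1244 lower, and 7 to 17 list genes higher and 8 to 12 lower; the cause was not tested. Over all genes, 1428 were higher with no filter and 1512 without strain replicate 1 and static replicate 3, an alternative chosen after seeing the data. Whether the replicate numbers pair the samples is not known. The correlations of deviations for same-numbered libraries were 0.05, 0.32 and 0.16, and they cannot decide this, since differently numbered libraries were not compared. With the replicate block 1557 genes and 25 list genes were higher, and 6 members were called higher. Of the named list genes called neither in the main fit nor with 1 library left out, Tlr4, Il6st and Nfkbia were called with the block (adjusted p = 0.0362, 0.0466 and 0.0451, edgeR). Their calls in the other alternatives were not examined.

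With a window of 1 kb or 20 kb the regions near members numbered 9 or 25, and 9 were in all libraries at 20 kb. With peaks of a −log10 q of at least 10 only, 3 and 3 members had a peak in knockout replicates 1 and 2 and 2 and 5 in GFP replicates, with 5 regions, 2 of them in all libraries. With a reciprocal overlap of 50% there were 22 regions, 2 in all libraries, 1 in the knockout pair only and 2 in the GFP pair only. With 1 ATAC-seq library left out there were 12 to 14 regions, 5 to 7 in all remaining libraries, 0 to 1 in knockout only and 0 to 4 in GFP only. Peak lists give no read depth, so a missing peak is no sign of closed chromatin.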
